A study of Mus musculus with 2 samples.

Results

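The densest megabases of the Tle3 peak list were described here, with chromosome 17 left out. Each peak midpoint was assigned to a fixed tile of 1 Mb (the first from position 1 to 1000000, the others following without overlap, mm9). Tiles were chosen by their number of midpoints, and those with 15 or more were kept. The rule kept 13 tiles on 6 chromosomes, with 236 of the 5136 peaks (4.60%). The number of peaks per tile is therefore given as a description and supports nothing, and spacing within a tile follows from it in part. Scores and widths were not used by the rule. Whether the omitted tiles of chromosome 17 cover the major histocompatibility complex was not examined, since no gene annotation of mm9 was used.

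The peaks came from chromatin immunoprecipitation and sequencing (ChIP-seq) in wild-type C57BL/6 mice 8 to 10 weeks old. Bone marrow cells lacking lineage markers and carrying cKit were used, a fraction that holds stem and progenitor cells of the blood. An antibody against Tle3 was used for 1 library, and 1 further library served as the control, with no replicates. Both came from the same kind of untreated wild-type cells. The control is called IgG in some label fields and input in others, and some fields name the cells T cells while another names them hematopoietic progenitors. The list comes without read totals, and sequencing depth is unknown. No test between animals was possible, and a tile is a place in 1 list, not a replicate.

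Tle3 is a corepressor of the Groucho family, known as transducin-like enhancer of split in mammals. These proteins do not bind DNA themselves. They are recruited by transcription factors, among them RUNX, HES and TCF/LEF family members, bind histone tails and histone deacetylases, and lower transcription at the bound genes. RUNX factors are central to the formation of blood stem cells and to several blood lineages.

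The dense tiles lay on chromosomes 2, 4, 7, 8, 10 and 11, and are named here by chromosome and letter in order along it. Chromosome 8 had 4 of them, 8a (73000001 to 74000000), 8b (86000001 to 87000000), 8c (87000001 to 88000000) and 8d (125000001 to 126000000). Chromosome 7 had 3, 7a (19000001 to 20000000), 7b (52000001 to 53000000) and 7c (87000001 to 88000000). Chromosome 10 had 10a (79000001 to 80000000) and 10b (80000001 to 81000000). Chromosome 11 had 11a (98000001 to 99000000) and 11b (120000001 to 121000000). Chromosomes 2 and 4 had 1 each, 2a (167000001 to 168000000) and 4a (140000001 to 141000000).

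The number of dense tiles was not in the order of the number of peaks on a chromosome. Chromosome 8 held 305 peaks, the seventh highest number, and 68 of them (22.3%) lay in its 4 dense tiles. On chromosome 10, 47 of 261 peaks (18.0%) did so. Chromosome 11 had the most peaks, 439, of which 38 (8.66%) were in dense tiles. Chromosome 5 had 381 peaks, the third highest number, and no dense tile, since its fullest tile held 13. Chromosome 11 instead spread its peaks over 12 tiles with 10 or more midpoints, and chromosome 5 over 9, against 6 on chromosome 8 and 2 on chromosome 10. On chromosome 10 those 2 were the dense tiles themselves.

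The threshold cut through a continuous range. Of the 13 tiles, 2 held 15 midpoints (7a and 7c), 4 held 16 (4a, 7b, 8b and 8c), and 4 held 20 or more (2a, 10a, 10b and 11b). The median was 17, against 2 over the 1364 tiles outside chromosome 17 with any peak. Just outside the threshold, 9 tiles held 14 midpoints. They lay on chromosomes 4, 7 (with 2), 11 (with 3), 15, 16 and 19, so the last 3 chromosomes missed the list by 1 peak. Median scores in these 9 tiles ran from 61.9 to 90.8.

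**Figure D1:**
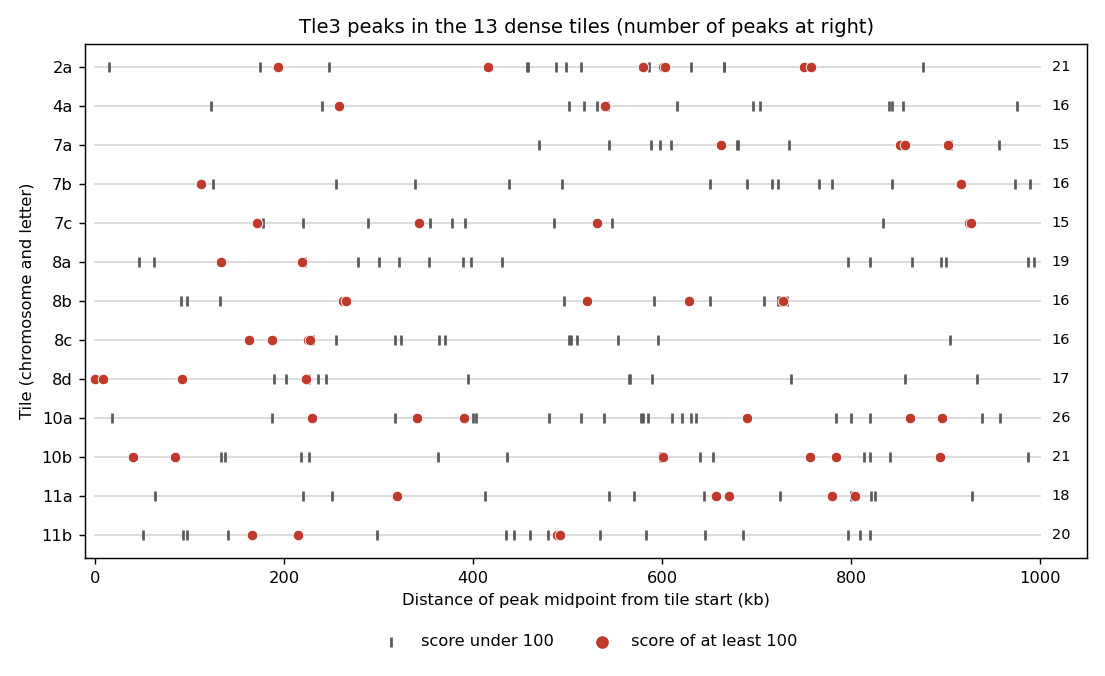
Positions of the Tle3 peaks in the 13 dense tiles, 1 row per tile. The x axis is the distance of the peak midpoint from the tile start in kb, red circles mark peaks scoring at least 100, grey ticks mark the others, and the number at right is the number of peaks. In tile 7a the 15 peaks span 487 kb at the far side, while in 10a they run through the tile after a first single peak.

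Tle3 peaks in dense tiles had scores like those of the list as a whole. The score is the one the authors' caller, MACS 1.4, gave each peak, which is the negative log10 of its p-value against the local background, multiplied by 10, and starts at 50 here. The median was 68.92 in the 236 peaks of dense tiles (quartiles 56.5 and 98.1) and 68.82 in all 5136 peaks (56.7 and 99.2). Of the 236, 57 scored at least 100 (24.2%, 95% exact interval 18.8 to 30.1%, for counting error only), against 24.5% of all peaks. A further threshold of 200 was passed by 10 of the 236 (4.24%, 2.05 to 7.65%), against 4.40%. Neither share differed from its background by more than the counting error. Of the 26 peaks of the list with a score of at least 400, 2 lay in dense tiles, both in 7a. Dense tiles held 4.60% of all peaks.

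No trend of score with the number of peaks in a tile was seen outside chromosome 17. The median score was 68.6 for the 410 peaks alone in their tile, and 67.7 for the 1638 peaks of tiles with 2 to 4. It was 69.7 for the 1872 peaks of tiles with 5 to 9, and 69.3 for the 712 peaks of tiles with 10 to 14. Median width, by contrast, rose across these classes of tile outside chromosome 17. It was 623.5 bp for peaks alone in a tile, 636.5, 674.5 and 685 bp in the next 3 classes, and 701 bp in dense tiles. Over all peaks it was 657 bp, which lies inside the interval of the dense-tile median, 655 to 729 bp. Larger widths were not particular to the dense tiles, since the 9 tiles with 14 midpoints had a median of 722.5 bp. By dense tile the median ran from 584 bp in 8a to 750.5 bp in 11b. Quartiles of width in dense tiles were 553 and 839 bp, so the classes overlap widely. The 37 peaks of the 2 tiles of chromosome 17 with 15 or more midpoints went the other way, with a median width of 593 bp. Of the 236 peaks, 29 (12.3%, 8.39 to 17.2%) were wider than 1000 bp, against 11.1% of all peaks, which is within the counting error. From peaks alone in a tile up to tiles with 10 to 14, this share was 9.51, 9.40, 11.8 and 13.3%. It therefore did not rise further in the dense tiles. These classes come from 1 library and were not tested against each other.

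Among the tiles, median scores ran from 62.8 in 7a to 83.1 in 8b, with 7 tiles above and 6 below the median of the list. Tile 8b held 5 of 16 peaks at 100 or more, and its highest was 161, so its high median came from many middling peaks. Tile 7a combined the lowest median with the highest single score, 1042. The largest number of peaks at 100 or more was in 2a, with 8 of 21. The smallest was 2, in 4a, 7b and 8a. In 5 tiles (7b, 8a, 8b, 8d and 10b) no peak reached 200. No dense tile held 15 peaks scoring at least 100, so none would have been kept at that score. With 24.5% of all peaks at 100 or more and 26 peaks in the fullest tile, hardly any other outcome was possible.

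**Figure D2:**
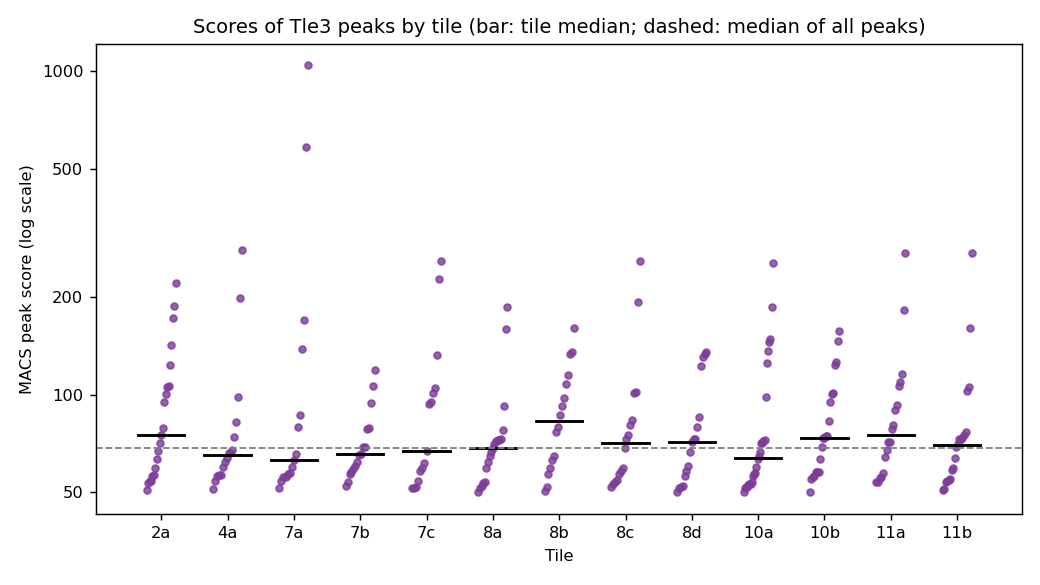
MACS score of each peak by tile, on a log scale, with the tile median as a bar and the median of all 5136 peaks (68.82) as a dashed line. Tile medians lie close to the line, between 62.8 and 83.1, and 7a alone has peaks above 500, at 582 and 1042.

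Neighbouring peaks within a dense tile were separated by a median of 26.7 kb from edge to edge, over 223 gaps. In the whole list the median gap was 120 kb, a contrast that the rule itself brings about. Of the 223 gaps, 14 were under 1 kb, 50 were 1 to 10 kb, 86 were 10 to 50 kb, 44 were 50 to 100 kb and 29 were 100 kb or more. The shortest gap was 20 bp, in 2a, and the longest 366 kb, in 8a.

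Short and long gaps occurred side by side. Every one of the 13 tiles held at least 1 gap under 10 kb and at least 1 over 100 kb. So many unevenly placed peaks in 1 Mb make both likely in any tile. Other placements were not compared, so this shows no special arrangement. Tiles 4a and 7b, with 16 peaks each, had the lowest and the highest median gap. In 4a it was 15.6 kb, with 5 gaps under 10 kb and 4 over 100 kb. In 7b it was 55.6 kb, with 1 gap under 10 kb and 2 over 100 kb. Peaks covered between 1.05% (4a) and 1.94% (10a) of a tile, so even the fullest was almost all sequence without a listed peak.

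**Figure D3:**
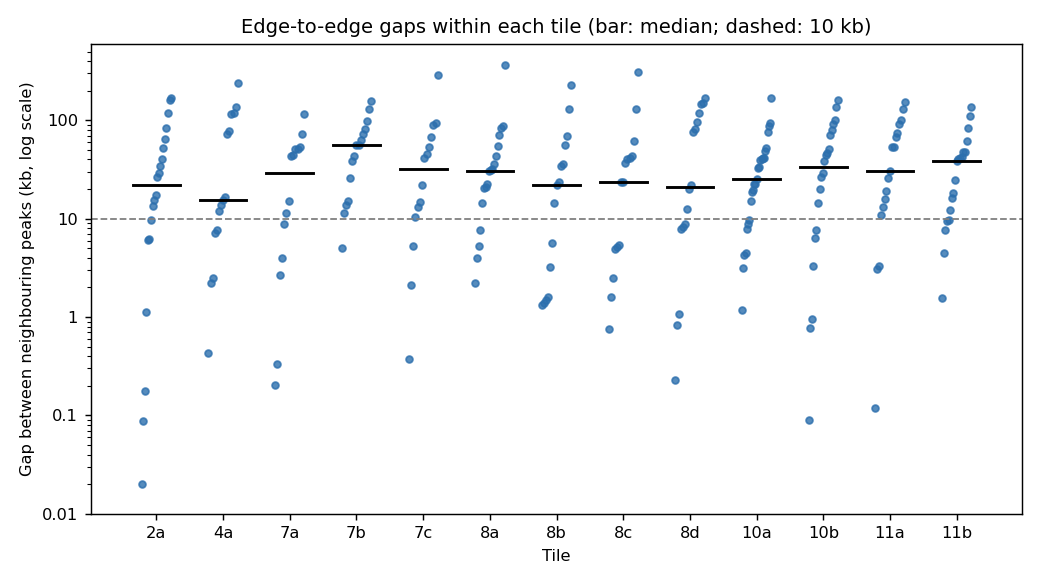
Edge-to-edge gaps between neighbouring peaks of the same tile in kb, on a log scale, with the tile median as a bar and 10 kb as a dashed line. Each tile spans more than a factor of 10 between its shortest and longest gap, and 7b has 1 point under the dashed line.

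Close neighbours were common in the dense tiles. Another peak lay within 10 kb of 110 of the 236 peaks (46.6%, 40.1 to 53.2%), against 22.2% of all peaks. The rule fixes part of this, because many peaks in 1 Mb must lie nearer to each other. The share was 47.6% in the 9 tiles with 14 midpoints and 43.2% in the 37 peaks of the 2 tiles of chromosome 17 with 15 or more. By tile, it ran from 2 of 16 peaks in 7b to 14 of 21 in 2a.

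In 11 of 13 tiles the highest scoring peak had a neighbour within 10 kb, the exceptions being 7a (15212 bp) and 7b (11487 bp). Of the 10 peaks scoring at least 200, 9 had such a neighbour, beside 110 of all 236 peaks of these tiles. In the whole list 69 of 226 peaks at 200 or more had one (30.5%), but the choice of crowded tiles raises this share, and the difference was not tested. Among the 64 gaps of up to 10 kb in these tiles, both flanking peaks scored at least 100 in 7, exactly 1 did in 22, and neither did in 35.

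Joining neighbours up to 10 kb apart produced 15 groups of 3 or more that touched a dense tile. They were 12 groups of 3, 2 of 4 and 1 of 5, spread over 10 tiles, and spanned between 2.96 and 25.7 kb. A peak scoring at least 100 was part of 12 of them, and 7 contained the highest scoring peak of their tile. Since 24.5% of all peaks reach 100, a group of 3 or more often holds one. The share among groups of the whole list is not given here, so these counts do not show that high peaks gather in groups. Tiles 2a, 7b and 8a held no such group, although 2a had the largest number of peaks with a close neighbour. In 2a the close peaks lay in pairs.

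Tile 10a was the fullest, with 26 peaks over 940 kb. In its 4 sections of 250 kb, in order, lay 3, 6, 10 and 7 peaks. Its first peak stood apart, 963 kb after the previous peak of the chromosome and 170 kb before the next. The other 25 peaks followed with no gap over 100 kb. The highest score was 256, at 79390205 to 79391716, in a group of 3 spanning 13.8 kb. A group of 4 from 79610464 to 79636130 and a group of 3 from 79577824 to 79584955 held only low peaks, with scores between 51.6 and 70.9 and between 51.9 and 60. The second widest peak of all dense tiles lay here too, 1666 bp at 79895556 to 79897221 with a score of 149, and 33108 bp from its nearest neighbour.

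Tile 10b held 21 peaks over 948 kb. Its 4 sections of 250 kb held 7, 2, 5 and 7, so the second was the emptiest. The longest empty stretch, 162 kb, ended at the closest pair, 80597980 to 80598497 and 80598587 to 80599253, whose edges were 89 bp apart and whose scores were 57.7 and 95.3. One more peak made this a group of 3 within 2.96 kb, the shortest such group in the dense tiles. Peaks of 10b scored no higher than 157 (80084584 to 80085677). A peak of 1460 bp at 80892910 to 80894369, with a score of 146, was 51386 bp from its nearest neighbour.

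Tiles 10a and 10b ran into each other when gaps of up to 100 kb were allowed, but not at 50 kb. The last peak of 10a ended 42.1 kb before their border and the first of 10b began 39.6 kb after it, a gap of 81.8 kb. The 45 gaps inside the 2 tiles had a median of 28.8 kb, and 7 of them were longer than the gap across the border. With gaps of up to 100 kb allowed, 1 chain of 32 peaks crossed the border, from 79187712 to 80226731, with 25 peaks in 10a and 7 in 10b. The 1 Mb centred on the border held 26 peaks, as many as 10a, and a window of 1 Mb placed freely over at least 500 kb of 10a held up to 31. Both tiles together held 47 peaks over 1.97 Mb. The tile before them had 1 peak and the tile after them 5.

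Tiles 8b and 8c shared a border but did not run into each other. Each held 16 peaks. The last peak of 8b ended 268 kb before the border and the first of 8c began 163 kb after it, so 431 kb around the border held no peak. That was longer than all 30 gaps inside the 2 tiles, of which the longest was 308 kb. The 1 Mb centred on the border held 19 peaks, 3 more than either tile, because the inner sides of both were the fuller ones. In 8b the last 250 kb were empty and the 250 kb before them held 9 peaks. In 8c the first 3 sections of 250 kb held 5 each and the last held 1.

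**Figure D4:**
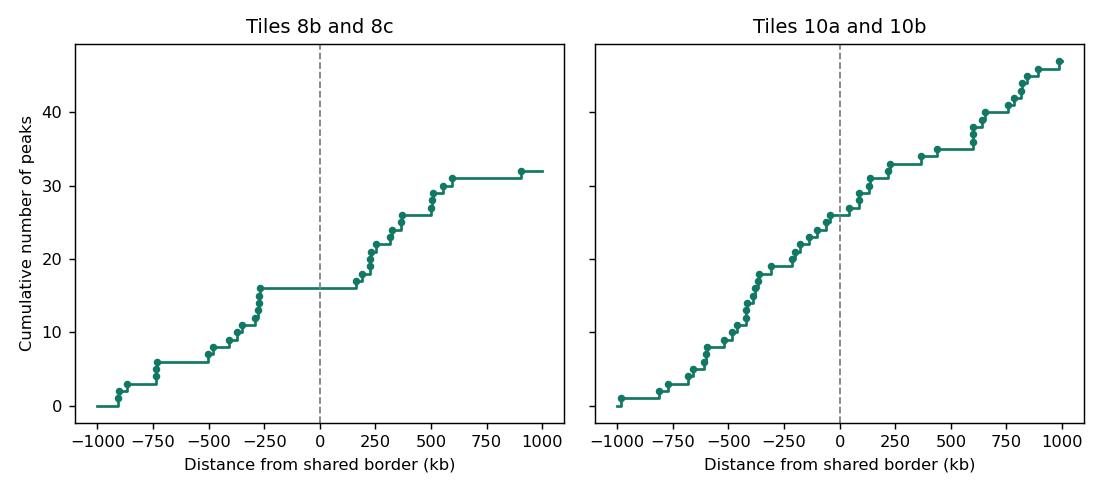
Cumulative number of peaks along the 2 pairs of adjacent dense tiles, against the distance of the peak midpoint from the shared border in kb (dashed line). The curve for 8b and 8c is flat for 431 kb around the border, and the curve for 10a and 10b for 81.8 kb.

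Within 8b, 3 peaks between 86261880 and 86266503 lay within 4.62 kb and scored between 86.5 and 161, the last being the highest of the tile. A second group of 4, from 86722012 to 86732266, scored between 52.1 and 136 and was the last before the empty stretch. Within 8c, the highest scoring peak (260, at 87224902 to 87226189) and the next (194, at 87226945 to 87227884) were 755 bp apart, the closest pair of the tile. A lone peak at the end of 8c followed after 308 kb. For comparison, the 2 adjacent tiles of chromosome 17 (34000001 to 36000000) held 37 peaks, with 213 kb across their border, longer than all but 1 of the 35 gaps inside them.

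The other tiles of chromosome 8 reached over their borders. In 8a, 19 peaks fell into 12 before and 7 after an empty stretch of 366 kb, the longest in any dense tile. The first 12 formed a chain with 3 peaks of the tile before, with gaps of up to 100 kb, over 554 kb. The highest score of 8a was 187, at 73219014 to 73219865, with its closest neighbour 2231 bp away. In 8d, 17 peaks were crowded at the start, with 10 in the first 250 kb and 1 in the next 250 kb. Its first peak began at 124999644, before the tile, and was the only one of the 236 to straddle a border. Only 1.21 kb separated it from the last peak of the tile before. A chain with gaps of up to 100 kb held these 10 peaks of 8d and 5 of the tile before, from 124804761 to 125244821. It contained the only group of 5 within 10 kb (125222769 to 125244821, 22.05 kb), which had 1 peak over 100, the tile's highest at 136.

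On chromosome 7, tile 7a stood out by its arrangement and its 2 tall peaks. Its 15 peaks all lay within 487 kb, with none in the first 250 kb of the tile and 1 in the next, and the previous peak of the chromosome was 1856 kb away. The tile before was empty. The tile after held 8 peaks, and a window of 1 Mb over at least 500 kb of 7a held up to 22. The peak at 19661251 to 19663850 scored 1042, the third highest score in the list, and with 2600 bp was the widest in any dense tile. The peak at 19901597 to 19902370 scored 582, the eighth highest, with a width of 774 bp. The next score in any dense tile was 280. Without these 2, the highest score in 7a was 170, for the 1449 bp peak at 19856684 to 19858132, in a group of 3 within 7.14 kb. Whether these regions are multi-copy sequence was not tested, nor was it for any other peak named here.

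Tile 7b held 16 peaks over 877 kb, with 2, 4, 4 and 6 in its sections of 250 kb. Its closest pair was 5067 bp apart, more than in any other dense tile, and its highest score, 119 at 52112310 to 52113065, was the lowest maximum among the 13. Peaks continued into the next tile, where 5 joined 10 of 7b in a chain with gaps of up to 100 kb over 528 kb (52650466 to 53178924). In 7c, 12 of 15 peaks lay before an empty stretch of 286 kb and 3 after it. Its 2 peaks over 200 lay near opposite ends of the tile, each with a close neighbour. The first, at 87170924 to 87172247, scored 229 and was 377 bp from a peak scoring 61.5. The other, at 87923886 to 87924813, scored 260 and had its nearest neighbour at 2115 bp.

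Tile 2a held 21 peaks over 862 kb, and 8 of them were in the third section of 250 kb. It held the closest pair of any dense tile. The peaks at 167457165 to 167457669 and 167457690 to 167458211 were 20 bp apart, with scores of 50.95 and 53.55 just above the minimum of the list. The highest peak, 222 at 167192815 to 167193652, was 88 bp from its neighbour. With gaps of up to 100 kb, 15 of the 21 peaks formed 1 chain of 343 kb (167415815 to 167758481). Gaps of 125 kb and 156 kb separated the tile's outer peaks from those beyond them, and the tiles on either side held 8 and 2 peaks.

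Tile 4a held 16 peaks over 853 kb, 8 of them in the third section of 250 kb. Its 2 peaks over 100 stood on either side of an empty stretch of 242 kb. One, at 140258050 to 140259107, scored 199 and was 432 bp from a peak scoring 56. The other, at 140538950 to 140539986, scored 280, the third highest in dense tiles, in a group of 3 over 12.02 kb. The last peak of 4a lay in a chain with 5 peaks of the next tile, which held 8.

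Each tile of chromosome 11 had 1 peak scoring over 200, and in both this peak had a close neighbour. In 11a, with 18 peaks over 864 kb, 13 were in the later 500 kb. The highest, 274 at 98803063 to 98804146, was 118 bp from a peak scoring 80.8, in a group of 3 over 6.06 kb. The tile before 11a held 13 peaks, the most beside any dense tile that was not dense itself, yet 372 kb without a peak lay between its last peak and the first of 11a. In 11b, 20 peaks over 770 kb included the pair at 120488775 to 120489733 (score 161) and 120491279 to 120492511 (score 275), 1545 bp apart. The 3 tiles before 11b held 10, 10 and 8 peaks. The tile after it held 1, the last peak of the chromosome in the list, and where the chromosome ends was not examined.

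The tiles beside the dense ones ranged from empty to well filled. Of the 22 neighbouring tiles that were not dense, 10 held 2 peaks or fewer, 1 of them none, and 12 held 5 or more. Their median was 5 and their maximum 13, against a median of 2 over the tiles outside chromosome 17 with any peak. None of the 13 dense tiles had 2 peaks or fewer on both sides. Taken as a pair, however, 8b and 8c had 1 peak in the tile before them and 2 in the tile after. Of the 13 dense tiles, 9 had no dense neighbour, so the 13 made up 11 separate stretches. A freely placed window of 1 Mb over at least 500 kb of the tile held more peaks than the tile in 11 of the 13, by up to 7. Tiles 8a and 11a were the exceptions. Such a window is the fullest of many tried and could not hold fewer peaks than the tile, so this count supports nothing. With tiles shifted by 500 kb, 16 were kept, and 3 of the 13 (2a, 7c and 11a) overlapped none of them. Which tiles were kept thus depended in part on where the fixed borders lay.

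**Figure D5:**
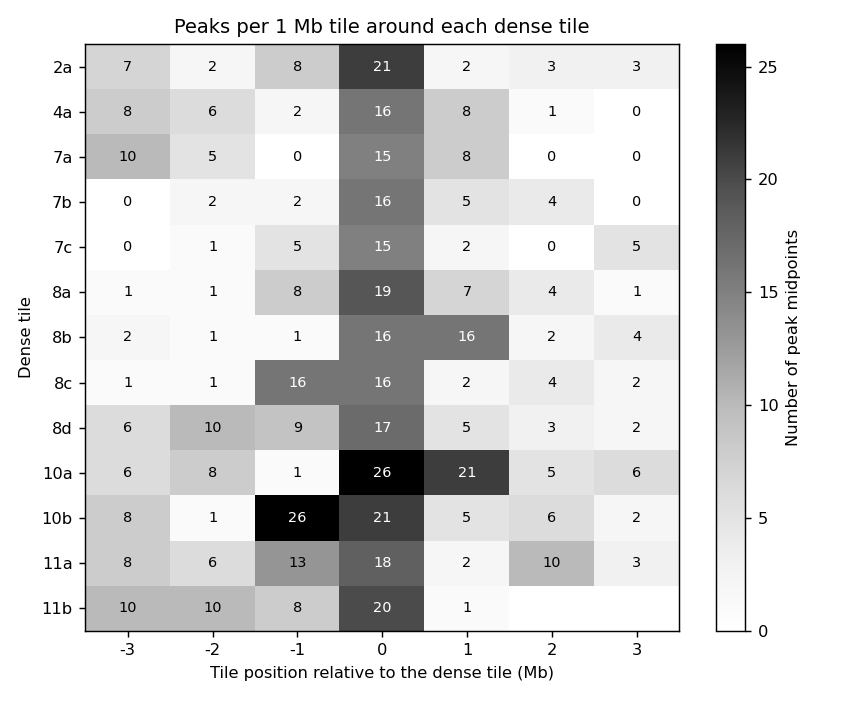
Number of peak midpoints in each dense tile (position 0) and in the 3 tiles on either side, at distances in Mb, with darker cells for more peaks. Tiles after the last peak of a chromosome are blank. Apart from the pairs 10a with 10b and 8b with 8c, cells beside position 0 hold between 0 and 13 peaks.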

How the data were processed

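Tle3 ChIP-seq was analysed from 1 deposited list of peaks, made from 1 Tle3 library and 1 control library. Bowtie2, MACS 1.4 and the build mm9 are named in the submitters' processing notes, while parameters, read filters and duplicate handling are not given in the sources. The value deposited by the authors is a score per peak, used only to describe and rank peaks within the list. It rises with sequencing depth, which is unknown, and weaker sites under 50 are not listed. Starts were converted to positions counted from 1, midpoints were rounded down, and gaps were measured between edges. A neighbour was another peak of the whole list within 10 kb, and chains also ran across tile borders.

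Shares carry 95% exact (Clopper-Pearson) intervals for counting error, and neighbouring peaks are not independent. No test was made, since regions of 1 list are not replicates. The members were chosen with earlier results of these data known. In each tile the highest scoring peak and the closest pair were to be named, and over all tiles the 10 highest and 5 widest; groups, chains and other features were added after their values were seen. The gene table and promoter sequences at hand are of GRCm38.p6, another build, so no gene was assigned and no sequence is printed. Alternatives were another tile start, another minimum, merging within 1 kb, peak starts, 50 kb and a score of at least 100, and chromosome 17 was added later. Functions were checked on a planted list. Python 3.11.15, numpy 2.4.6, pandas 2.3.3, SciPy 1.17.1 and matplotlib 3.10.9 were used.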

Additional observations from a re-analysis of the deposited data

How the results depend on the processing

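The choice of tiles depended on the minimum and on where tiles start. At 12 midpoints a tile there were 42 tiles with 612 peaks in 38 stretches, and at 18 there were 6 with 125 peaks in 5. Shifting tiles by 500 kb gave 16 tiles with 277 peaks in 15 stretches, against 11 stretches for the 13 tiles. How dense tiles join thus also depended on where tiles start. Of the 16 tiles, 7 overlapped none of the 13, and 3 of the 13 (2a, 7c and 11a) overlapped none of the 16. Merging peaks within 1 kb left 11 tiles, without 7a and 7c. At a score of at least 100, 0 of the 13 tiles held 15 peaks. Only 24.5% of all peaks pass that score, so with the same minimum hardly any other outcome was possible. The share of peaks with another within 10 kb was 46.6%, against 39.9% at 12 midpoints and 40.0% after merging. The share over all peaks of the merged list is not given here. Within 50 kb the share in dense tiles was 85.2%, beside 49.5% of all peaks. It was 74.3% in tiles with 10 to 14 midpoints outside chromosome 17. Of 50 alternative values, 40 stayed within 1.5 times the count or within the interval of the main value. Those intervals were 64.9 to 72.8 for the median score and 21.1 to 38.5 kb for the median gap. A minimum of 12, peak starts and chromosome 17 included kept 236, 235 and 236 of the 236 peaks. Closeness was thus largely fixed in advance, and the 40 show no robustness. The 50 include the values with chromosome 17. The median score was between 68.84 and 70.82 in all settings that gave one. Including chromosome 17 was chosen after seeing the data and gave 15 tiles with 273 peaks. Gene starts and motifs were not run, since no mm9 genome or annotation was used. No paired analysis was possible because each antibody had a single library.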
